A study of Mus musculus with 56 samples.

Results

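Monocytes and macrophages that had entered a muscle wound in mice without regulatory T cells (Tregs) were compared at day 7 and at day 4 after injury. The 6 libraries were taken by their labelled tissue, arm and day, 3 at each day, out of 56 in the series, and all 12907 genes expressed in muscle were tested. In the series such cells were sorted from injured heart, bone, muscle or skin, and bulk RNA was sequenced from transcript 3′ ends. The muscle injury was a volumetric muscle loss defect, which removes a piece of the muscle, and each mouse had 1 injury. All mice were 10 weeks old and received diphtheria toxin (20 ng per g body weight) from before the injury onward. The depleted arm was Foxp3(DTR/GFP) mice (FDG), whose toxin receptor is driven by the Foxp3 locus, so that toxin kills their Tregs. The control arm, used here to ask whether a change over time differed with depletion, was toxin-treated wild-type C57BL/6J mice (WT), again with 3 libraries at each day. Genotype and depletion therefore go together, and mice sampled at day 7 had also been in the toxin schedule for longer than those sampled at day 4.

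After muscle injury, monocytes from the blood enter the damaged tissue, first with a pro-inflammatory programme, and over the following days become macrophages that clear debris, secrete growth factors and support regeneration. Tregs gather in injured muscle and are known to restrain inflammatory macrophages and to help satellite cells, the stem cells of muscle. The cytokines interleukin 4 and interleukin 13, made by eosinophils, basophils and lymphocytes, act through the transcription factor STAT6 and turn on a "type 2" gene programme in macrophages, of which Retnla, Chil3 and Arg1 are the best known readouts in the mouse.

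Library totals were 4317235 to 5353931 counts at day 4 and 4029647 to 5843418 at day 7. Levels are given as CPM, counts scaled to each library's effective size, in the order of replicates 1, 2 and 3. Changes are log2 differences with their standard error (SE). P-values come from the quasi-likelihood test of edgeR and were adjusted over all tested genes by the Benjamini-Hochberg method. A gene is said to have risen or fallen where the adjusted p was under 0.05. A dagger (†) marks a gene whose deposited counts were not whole numbers in 6 or more of the 12 muscle libraries, as where reads are divided between genes, so that its level is uncertain against near-identical copies. The first principal component held 40.4 percent of the variance and separated the days, and replicate 2 of day 7 stood apart from the other day 7 libraries on the third. The labels do not say whether the libraries of a group came from separate mice, so that p-values measure only the spread between these libraries. The ribosomal RNA gene Rn18s-rs5 moved with the day: it stood at 5062, 9014 and 7304 CPM at day 4 and at 22098, 46905 and 16276 CPM at day 7, against 5086 to 13804 and 5916 to 9928 in the control arm (log2 change 2.00, SE 0.44, adjusted p = 0.00729; adjusted p = 0.0612 without the filter on low counts and 0.051 without replicate 1 of day 4). Its part in the results was not tested beyond a fit with its log2 CPM as a covariate, and a double dagger (‡) marks a gene whose call was lost in that fit. In depleted muscle its day 7 values all lay above its day 4 values, so that the covariate and the day are largely confounded. That fit therefore takes up part of the change over time. A call lost in it does not tell whether Rn18s-rs5 or the day goes with the change. The sorted cells carried Csf1r at 617 to 839 and 517 to 626 CPM at days 4 and 7, Adgre1 (F4/80) at 299.9 to 379.8 and 199.5 to 259, and Lyz2†‡ at 8793 to 12661 and 7011 to 7649, as monocytes and macrophages do. Of 12 markers of these cells 5 fell and 2 rose (4 and none with the covariate), against 8.72 and 10.7 percent of all tested genes. Their summed level was 13390 to 17500 CPM at day 4 and 11190 to 11380 at day 7, beside 17360 to 19100 and 13700 to 17240 in control muscle. The part of this lower level in the results was not tested. Foxp3, at whose locus the receptor for the toxin sits, had 2 counts over the day 4 libraries and 1 over the day 7 libraries, too few to test, and it checks nothing in cells that are not T cells. Library names at day 7 carry a pair of numbers and those at day 4 a single one, in both arms. The labels do not say whether a pair marks pooled mice; if it does, pooling and the day cannot be told apart.

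At day 7, 1377 of the 12907 tested genes (10.7 percent) were higher than at day 4 and 1125 (8.72 percent) were lower, while the median change over all tested genes was -0.02. The rises were larger than the falls: 516 genes rose and 74 fell by at least 4-fold. With the Rn18s-rs5 covariate 501 of the 12907 genes rose and 400 fell, which is the background for the covariate counts of each list. Without replicate 2 of day 7 1145 rose and 861 fell. Among the genes with the largest rises were Rnase2a and Prg2, secreted proteins of the eosinophil granule families, Car4, a membrane-bound carbonic anhydrase, and Col6a5, a chain of collagen VI. Col6a5 had no count in any day 4 library and 21.0, 13.5 and 20.1 CPM at day 7, a mean at least 86.3-fold higher, with 3 counts over the day 4 libraries as the limit that a count of 0 allows. Car4 stood at 0.416, 0 and 1.38 CPM at day 4 and 31.0, 125 and 51.5 at day 7 (log2 change 6.71, SE 0.69, adjusted p = 1.09e-05). H2-M2, a non-classical MHC class I gene, went from 0.833, 2.10 and 0.986 CPM to 55.9, 40.3 and 54.0 (log2 change 5.27, SE 0.33, adjusted p = 1.23e-08). Among the largest falls were those of Gpr162, an orphan receptor, which went from 5.83, 7.47 and 5.32 CPM to 0.353, 0.265 and 1.05 (log2 change -3.40, SE 0.49, adjusted p = 7.38e-05). Cd28, a costimulatory receptor, went from 8.33, 12.8 and 4.53 CPM to 0.529, 1.06 and 1.47 (log2 change -3.06, SE 0.47, adjusted p = 0.000132). The days did not overlap for any of these genes, as for 33.0 percent of all tested genes. Of the 2502 called genes 2404 had no overlap, and for most genes named it was a condition of being named. Remarks on overlap here and below therefore describe the values and add no support to a call.

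**Figure D1:**
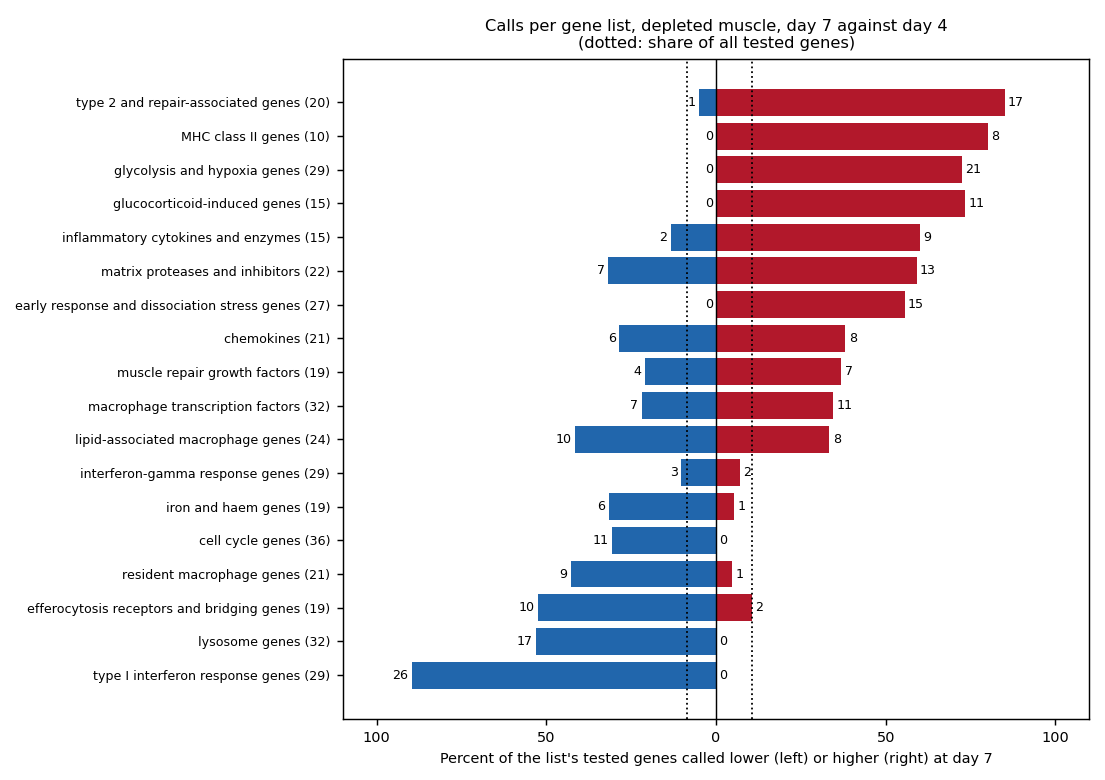
Percent of the tested genes of each list that were lower (bars to the left, blue) or higher (bars to the right, red) at day 7 in depleted muscle, with the number of genes at each bar's end and the number tested in brackets; dotted lines mark 8.72 and 10.7 percent, the shares over all tested genes. Type 2 genes rose (17 of 20) and type I interferon response genes fell (26 of 29), while lipid-associated macrophage genes moved both ways. The lists were chosen with earlier results of these data known, so that the bars describe them and do not test them against the dotted lines.

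All gene lists were chosen with earlier results of these data known, so that their counts beside the share of all genes are descriptions and not tests. Genes of the type 2 and repair list rose almost throughout. Of 20 tested, 17 rose, against 10.7 percent of all tested genes, and only Il4ra fell; the median change was 3.08, against 1.07 for the same genes in control muscle and -0.02 over all genes. The count was 15 with the Rn18s-rs5 covariate, 15 without replicate 2 of day 7 and 13 without the genes with divided counts. Retnla (ENSMUSG00000061100), which encodes the secreted resistin-like molecule alpha, stood at 161, 532 and 253 CPM at day 4 and at 10191, 15494 and 9295 CPM at day 7, a rise of 37.0-fold (log2 change 5.21, SE 0.55, adjusted p = 6.94e-05). Its lowest day 7 value lay far above its highest day 4 value. Chil3† (Ym1), a chitinase-like protein, rose from 127, 101 and 79.3 to 1713, 1837 and 1525 CPM (log2 change 4.04, SE 0.25, adjusted p = 2.52e-08). Its relative Chil4† rose from 0.833, 0 and 0.394 to 13.8, 12.5 and 10.5 (log2 change 4.78, SE 0.63, adjusted p = 3.4e-05). Ear2†, of the eosinophil-associated ribonucleases, rose from 24.6, 30.8 and 17.0 to 838, 629 and 825 CPM (log2 change 4.99, SE 0.33, adjusted p = 1.88e-07). Rnase2a, of the same family, rose from 2.71, 4.67 and 1.58 to 275, 322 and 268 (log2 change 6.61, SE 0.34, adjusted p = 2.13e-09). No library of day 4 reached the level of a day 7 library in any of these genes. In control muscle the change was 2.05 for Retnla, 1.72 for Ear2†, -1.29 for Chil3† and -1.04 for Chil4† on the log2 scale.

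The promoter of Retnla is shown because STAT6 binds a motif that can be looked for in it, TTC, any 4 bases, GAA, the same on both strands. Windows of 250 bases before to 50 after a start were taken from RefSeq (build GRCm38.p6) and matched by symbol for 8972 of the 12907 tested genes. Of these genes 6.58 percent held this motif in any of their windows. The window of Retnla (chr16:48842359-48842658, + strand), read 5′ to 3′ with the motif in capitals, is the following.
Retnla: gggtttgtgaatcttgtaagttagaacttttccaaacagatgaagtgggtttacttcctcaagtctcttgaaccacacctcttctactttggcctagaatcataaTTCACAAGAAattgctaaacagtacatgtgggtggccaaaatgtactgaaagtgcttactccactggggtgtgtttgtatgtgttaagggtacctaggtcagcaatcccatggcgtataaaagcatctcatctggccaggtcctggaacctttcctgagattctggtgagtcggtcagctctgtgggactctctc
The motif begins at base -145 from the start of transcription. Too few genes of the list had a window for a count over it. A match describes letters in the window and is not a bound site.

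Among the enzymes and surface proteins of the list, Alox15, the 12/15-lipoxygenase that makes lipid mediators from arachidonic acid, rose from 11.7, 14.0 and 12.2 to 119.8, 352 and 243 CPM (log2 change 4.23, SE 0.30, adjusted p = 1.2e-07). Pdcd1lg2, which encodes PD-L2, an inhibitory ligand for T cells, rose from 8.54, 1.63 and 0.789 to 56.6, 45.9 and 68.7 (log2 change 3.95, SE 0.48, adjusted p = 2.84e-05). The lectin gene Mgl2† rose from 52.9, 65.8 and 45.7 to 441, 594 and 577 (log2 change 3.29, SE 0.23, adjusted p = 6.84e-08). Cd209d, a lectin related to DC-SIGN, rose from 2.08, 1.87 and 1.38 to 13.9, 11.1 and 10.5 CPM. Control muscle went from 8.05, 6.58 and 4.86 to 27.9, 11.3 and 20.9 CPM of Cd209d, and the difference between the arms did not pass the test. In depleted muscle day 7 libraries were above all day 4 libraries for each of these genes. Arg1‡, the enzyme that breaks down arginine to ornithine, stood at 155, 95.7 and 353 CPM at day 4 and at 731, 749 and 839 at day 7 (log2 change 1.94, SE 0.48, adjusted p = 0.0164). The days did not overlap, but day 4 varied widely, and the call was lost with the Rn18s-rs5 covariate (adjusted p = 0.336), without the filter on low counts (0.0777) and without replicate 1 of day 4 (0.0724), replicate 2 of day 7 (0.0598) or replicate 3 of day 7 (0.0533). In control muscle Arg1 went from 161, 407 and 234 CPM at day 4 to 37.2, 53.6 and 25.7 at day 7. Egr2 and Klf4, transcription factors of this programme, rose by 0.90 and 0.94 on the log2 scale, beside 0.95 and 0.82 in control muscle. Mrc1 (CD206), often used as a marker of such cells, did not pass the test, at 238, 281 and 239 CPM at day 4 and 209, 194 and 199 at day 7 (log2 change -0.33, SE 0.12, adjusted p = 0.0562). Il4ra, the receptor chain for interleukins 4 and 13, fell (-0.72 on the log2 scale).

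**Figure D2:**
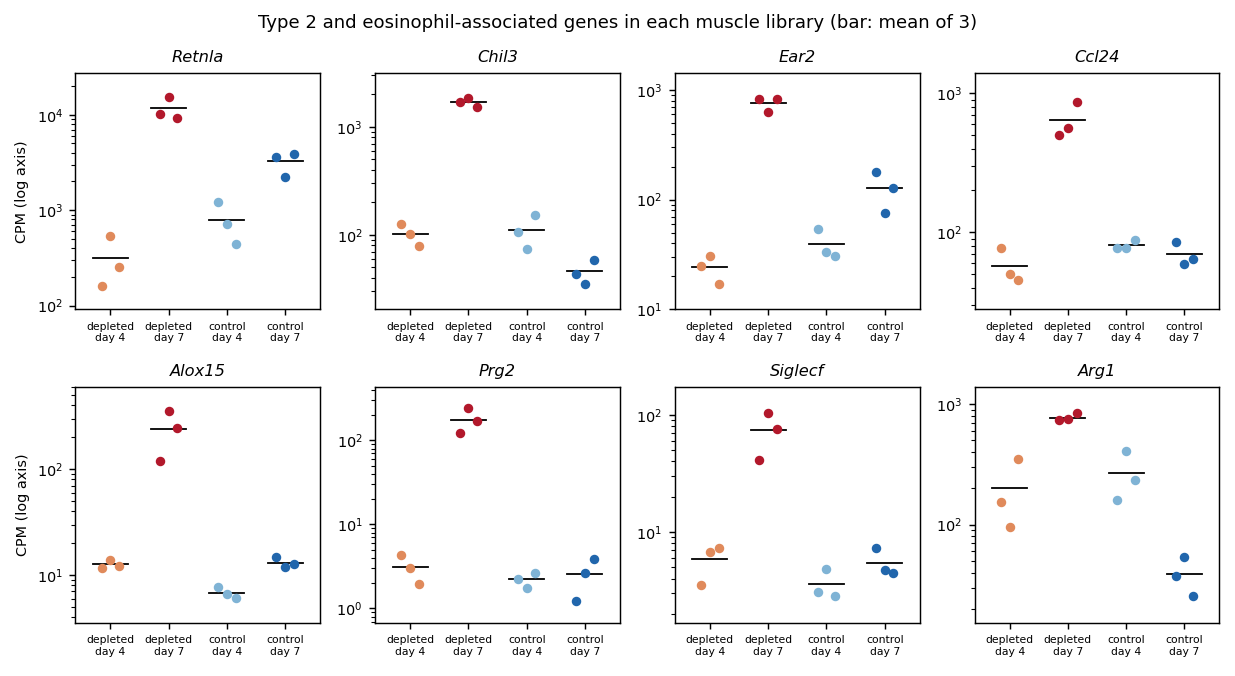
CPM (log axis) of 8 type 2 and eosinophil-associated genes in each of the 12 muscle libraries, as points by arm and day, with bars at the mean of 3. The day 7 depleted libraries lie above the other 9 libraries in each panel; Arg1 in control muscle is lower at day 7 than at day 4.

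Markers of granulocytes moved with these genes. Of 17 markers of mast cells, basophils and eosinophils, 7 were tested and 6 rose (4 with the Rn18s-rs5 covariate, 10 without the filter on low counts). Over all tested genes 10.7 percent rose, but a marker low at day 4 could pass the filter on its day 7 level alone. The summed level of all 17 was 20.9 to 28.95 CPM at day 4 and 241.9 to 561.6 at day 7, against 16.52 to 19.9 and 24.79 to 30.57 CPM in control muscle. Prg2, the major basic protein of the eosinophil granule, rose from 4.37, 3.04 and 1.97 to 121, 240.4 and 168 CPM (log2 change 5.81, SE 0.32, adjusted p = 3.32e-09). Siglecf, a sialic acid-binding lectin of eosinophils and some macrophages, rose from 3.54, 6.77 and 7.30 to 41.1, 104 and 76.0 (log2 change 3.64, SE 0.34, adjusted p = 1.14e-06). Ccr3, the eotaxin receptor, rose from 4.37, 6.30 and 4.73 to 31.6, 108 and 80.9 (log2 change 3.83, SE 0.46, adjusted p = 3.61e-05). Il4 itself was measured at 4.37, 1.87 and 0.789 CPM at day 4 and 15.0, 42.2 and 35.8 at day 7 (log2 change 3.71, SE 0.54, adjusted p = 0.000108). Replicate 2 of day 7 was the highest and replicate 1 the lowest of the day for all 4 of these genes. Il5ra, the receptor chain for interleukin 5 on eosinophils, which did not pass the filter on low counts, stood at 0.416, 0.234 and 0.197 CPM at day 4 and 1.94, 9.82 and 5.24 at day 7, in the same order of libraries. The eosinophil peroxidase Epx had no count at day 4 and 0.353, 1.06 and 1.68 CPM at day 7, and the mast cell proteases Mcpt4 and Cpa3 were at no more than 0.21 and 1.23 CPM in any day 7 library. The part of such cells in the rise of the type 2 genes was not tested, and in bulk RNA more cells of a type and more RNA per cell cannot be told apart.

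Chemokine genes moved both ways, with eosinophil and T cell attractants of the type 2 list among those that rose. Of 21 chemokine genes tested, 8 rose and 6 fell (7 and 2 with the Rn18s-rs5 covariate), against 10.7 and 8.72 percent of all tested genes. The median change was 0.31. Ccl24 (eotaxin 2), an attractant of eosinophils, stood at 77.5, 50.2 and 45.3 CPM at day 4 and 498, 566 and 859 at day 7 (log2 change 3.47, SE 0.23, adjusted p = 2.94e-08). Ccl17, a ligand of the receptor CCR4 on T cells, rose from 23.5, 15.6 and 22.9 to 413, 279.9 and 656 CPM (log2 change 4.44, SE 0.57, adjusted p = 0.000339). Ccl22, another ligand of CCR4, rose from 6.46, 1.87 and 3.75 to 50.8, 60.5 and 75.8 (log2 change 3.93, SE 0.47, adjusted p = 3.34e-05). Ccl12, a ligand of the monocyte receptor CCR2, fell from 325, 219 and 318 to 105, 67.4 and 105 CPM (log2 change -1.63, SE 0.21, adjusted p = 3.15e-05). Control muscle had 103, 121 and 150 CPM of Ccl12 at day 4 and 88.6, 88.9 and 131 at day 7, so that the arms differed mainly at day 4. Pf4, the chemokine CXCL4, fell from 1137, 1619 and 2219 to 307, 225 and 476 (log2 change -2.30, SE 0.29, adjusted p = 6.23e-05). Among inflammatory cytokines and enzymes 9 of 15 tested rose and 2 fell (7 and 1 with the covariate, and 1 lower without any one of replicate 3 of day 4 and the 3 day 7 libraries). Il1rn, the interleukin 1 receptor antagonist, rose from 159, 138 and 112 to 337, 643 and 531 CPM (log2 change 1.88, SE 0.20, adjusted p = 4.83e-06). Il6 rose from 7.50, 6.07 and 9.07 to 31.2, 28.9 and 24.3 CPM (1.89 on the log2 scale). Acod1, whose enzyme makes itaconate, rose from 13.3, 5.14 and 6.90 to 26.8, 63.7 and 64.7 (2.60 on the log2 scale). Il1r2, the decoy receptor for interleukin 1, rose from 22.3, 7.94 and 18.3 to 69.7, 198 and 136 (log2 change 3.04, SE 0.38, adjusted p = 6.02e-05). Il18 fell from 47.3, 55.8 and 64.7 to 21.5, 20.7 and 17.8 CPM (log2 change -1.48, SE 0.22, adjusted p = 8.14e-05). The antagonist and the decoy receptor of interleukin 1 thus both rose. Il1b did not pass the test, at 123 to 181 CPM at day 4 and 159 to 249 at day 7.

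Proteases, their inhibitors and growth factors also changed. In the list of matrix proteases and inhibitors 13 of 22 rose and 7 fell (11 and 4 with the covariate), a median of 1.38 against 0.14 in control muscle. The shares over all tested genes were 10.7 percent higher and 8.72 percent lower. Mmp12, the macrophage elastase, rose from 232, 131 and 208 to 1252, 1200.2 and 1112 CPM (log2 change 2.64, SE 0.18, adjusted p = 2.52e-08). Timp1, an inhibitor of matrix metalloproteinases, rose from 22.7, 20.8 and 26.6 to 137, 99.0 and 158 (log2 change 2.49, SE 0.20, adjusted p = 1.88e-07). Serpinb2, an inhibitor of plasminogen activators, rose from 5.41, 10.5 and 8.08 to 112, 597 and 190.2 CPM (log2 change 5.23, SE 0.63, adjusted p = 0.000199). Replicate 2 of day 7 had by far the highest Serpinb2, and the days did not overlap. Adam8, a membrane protease of leukocytes, rose from 195, 157 and 195 to 404, 417 and 397 CPM (log2 change 1.16, SE 0.12, adjusted p = 3.07e-06), and Plaur, the urokinase receptor, from 137, 111 and 110.2 to 289, 468 and 329.5 (log2 change 1.60, SE 0.16, adjusted p = 1.47e-06). Mmp14, a membrane-bound collagenase, and Timp2 fell (-0.94 and -0.92 on the log2 scale). Of 19 growth factor genes tested, 7 rose and 4 fell, with the covariate 2 and 1, and in a fit of the 6 depleted libraries alone 4 rose. Hbegf, a ligand of the epidermal growth factor receptor, rose from 4.37, 3.74 and 4.53 to 31.2, 52.8 and 42.9 CPM (log2 change 3.31, SE 0.26, adjusted p = 1.2e-07). Inhba, the subunit of activin A, rose from 7.70, 3.04 and 2.96 to 36.5, 36.9 and 39.4 (log2 change 3.03, SE 0.32, adjusted p = 3.38e-06). Both had non-overlapping days, and the control libraries stood at 5.37 to 14.3 CPM for Hbegf and 2.04 to 4.11 for Inhba. Grn (progranulin), a growth factor of the lysosome, fell from 2349.9, 3156 and 2897 to 1522, 940.5 and 1367 CPM (log2 change -1.13, SE 0.18, adjusted p = 0.000176). Tgfb1 did not pass the test, at 16.0, 17.5 and 15.0 CPM at day 4 and 14.5, 14.1 and 15.1 at day 7. Igf1, a growth factor for muscle made by repair macrophages, did not pass the test, at 426, 566 and 454 CPM at day 4 and 608, 429.5 and 653 at day 7 (log2 change 0.23, SE 0.16, adjusted p = 0.386).

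Glycolysis and hypoxia genes rose as a group in depleted muscle. Of 29 tested, 21 rose, against 10.7 percent of all tested genes, and none fell, with a median change of 0.83 against -0.41 in control muscle. The count of 21 was 5 with the Rn18s-rs5 covariate, where the median was 0.75, 18 without replicate 2 of day 7 and 13 without replicate 2 of day 4. Slc2a1 (ENSMUSG00000028645), the glucose transporter GLUT1, rose from 28.7, 11.4 and 22.3 to 46.6, 48.3 and 56.3 CPM (log2 change 1.27, SE 0.24, adjusted p = 0.000768). Further along the pathway, Gpi1† (glucose phosphate isomerase) rose from 234, 229.8 and 278 to 403, 555 and 568 CPM (log2 change 1.04, SE 0.15, adjusted p = 5.61e-05). Pfkp (phosphofructokinase) rose from 73.3, 45.3 and 63.9 to 146, 163 and 168 (log2 change 1.38, SE 0.18, adjusted p = 3.32e-05). Aldolase, encoded by Aldoa†, rose from 809.6, 845 and 1074 to 1512, 2157 and 1866 (log2 change 1.02, SE 0.15, adjusted p = 8.87e-05). Every day 7 library was above every day 4 library for these enzymes. Among the lower steps of the pathway the log2 change was 0.83 for Pgk1†‡, 0.93 for Eno1†‡ and 0.65 for Ldha‡. Slc16a3‡, the lactate exporter MCT4, went from 109.7, 73.6 and 155 CPM at day 4 to 238, 504 and 385 at day 7 (log2 change 1.73, SE 0.26, adjusted p = 0.000184). Vegfa‡, the growth factor of blood vessels, went from 8.75, 5.84 and 11.2 to 29.3, 71.1 and 47.6 CPM (log2 change 2.49, SE 0.35, adjusted p = 7.93e-05). Within day 7, replicate 2, the library with the highest Rn18s-rs5, had the highest value of Slc16a3 and Vegfa. Hif1a, the hypoxia-inducible factor, did not pass the test (81.8, 52.5 and 72.8 CPM at day 4, 77.4, 144 and 101 at day 7, log2 change 0.63, SE 0.25, adjusted p = 0.0962).

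The promoters of this group are shown because the hypoxia-inducible factors bind a short element, ACGTG, that can be read in their letters. ACGTG, searched on both strands, was present in 22 of the 28 genes of the glycolysis and hypoxia list that had a RefSeq window (78.6 percent). The share was 29.7 percent over all genes with a window. It was 76.9 percent (10 of 13) in the glucocorticoid-induced list, so that the element does not set the glycolysis list apart. The windows of Pgk1 (chrX:106186850-106187149, + strand) and Slc2a1 (chr4:119108495-119108794, + strand) read as follows, 5′ to 3′, with the element in capitals on either strand.
Pgk1: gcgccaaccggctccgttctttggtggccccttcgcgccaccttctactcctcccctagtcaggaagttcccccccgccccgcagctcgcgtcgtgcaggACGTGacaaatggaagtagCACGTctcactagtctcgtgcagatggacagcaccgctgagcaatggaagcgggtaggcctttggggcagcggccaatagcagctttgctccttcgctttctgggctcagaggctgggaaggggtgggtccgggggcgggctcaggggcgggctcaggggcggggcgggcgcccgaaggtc
Slc2a1: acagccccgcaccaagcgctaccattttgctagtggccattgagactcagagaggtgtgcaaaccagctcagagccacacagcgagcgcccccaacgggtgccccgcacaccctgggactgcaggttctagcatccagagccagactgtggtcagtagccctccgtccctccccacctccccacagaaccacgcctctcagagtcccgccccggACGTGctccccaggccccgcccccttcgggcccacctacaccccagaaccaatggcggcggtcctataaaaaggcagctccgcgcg
Pgk1 has a pair of matches and Slc2a1 has 1.

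Type I interferon response genes fell. Of 29 tested, 26 were lower at day 7 and none higher, against 8.72 percent of all tested genes lower, with a median change of -1.25 against -0.44 in control muscle. The count was 9 with the Rn18s-rs5 covariate, where the median was -0.98, 23 without replicate 2 of day 7, and 17 without the 9 members with divided counts. Irf7 (ENSMUSG00000025498), the transcription factor that amplifies the response, stood at 395, 336 and 481 CPM at day 4 and at 120.3, 164 and 168 at day 7 (log2 change -1.42, SE 0.22, adjusted p = 0.000212). The antiviral effector Ifit3† fell from 69.6, 46.2 and 77.5 to 16.4, 18.3 and 13.0 CPM (log2 change -2.02, SE 0.25, adjusted p = 1.77e-05). Mx1, a GTPase against influenza viruses, fell from 34.8, 36.0 and 34.3 to 7.94, 10.9 and 9.01 (log2 change -1.93, SE 0.25, adjusted p = 2.85e-05), and Rsad2‡ (viperin) from 104, 99.2 and 102 to 31.2, 27.1 and 37.1 (log2 change -1.67, SE 0.25, adjusted p = 0.000154). No day 7 library reached the lowest day 4 library in any of them. Bst2 (tetherin), which holds viruses at the cell surface, fell from 186, 203 and 217 to 70.2, 65.0 and 97.8 CPM (log2 change -1.38, SE 0.17, adjusted p = 1.27e-05). Tlr7, the sensor of single-stranded RNA upstream of this response, fell from 29.8, 41.6 and 30.2 to 6.53, 3.98 and 7.75 (log2 change -2.44, SE 0.27, adjusted p = 4.47e-06).

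Of 29 interferon-gamma response genes tested, 2 rose and 3 fell, against 10.7 and 8.72 percent of all tested genes, with a median of 0.13, and the summed level was 2691 to 5221 CPM at day 4 and 3404 to 4916 at day 7. Replicate 1 of day 4 was the highest of its day for Cxcl9 (79.1, 9.34 and 21.1 CPM at day 4, 57.3, 13.8 and 81.7 at day 7) and Gbp2 (212, 44.8 and 86.2 and 134, 125 and 227). The days overlapped for both genes. Without that library 11 of the list rose and 1 fell, and with the Rn18s-rs5 covariate none passed the test.

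Promoters of interferon-stimulated genes carry the interferon-stimulated response element, whose core was searched as TTTC, any 2 bases, TTTC on both strands. It was present in any window of 4.2 percent of all genes matched to a window. Only 21 of the list's genes had a window, under 80 percent, so that a count over the list is void. The windows of Ifit3 (chr19:34583279-34583578, + strand) and Rsad2 (chr12:26456403-26456702, - strand) are shown for members that fell, with the core in capitals.
Ifit3: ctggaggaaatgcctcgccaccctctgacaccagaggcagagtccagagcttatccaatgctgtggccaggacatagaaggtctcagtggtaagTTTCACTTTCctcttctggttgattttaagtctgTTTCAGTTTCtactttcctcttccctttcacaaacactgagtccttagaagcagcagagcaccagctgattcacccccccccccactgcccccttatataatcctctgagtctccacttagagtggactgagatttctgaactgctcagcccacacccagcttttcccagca
Rsad2: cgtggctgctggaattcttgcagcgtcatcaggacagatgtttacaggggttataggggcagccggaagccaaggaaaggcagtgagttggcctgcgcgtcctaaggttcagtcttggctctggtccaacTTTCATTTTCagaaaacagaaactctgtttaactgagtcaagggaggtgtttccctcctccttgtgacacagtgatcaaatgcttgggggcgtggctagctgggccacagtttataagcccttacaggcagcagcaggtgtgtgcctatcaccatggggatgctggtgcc
In Ifit3 the cores begin at bases -156 and -122 from the start of transcription, and in Rsad2 the core begins at base -120.

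Genes of resident macrophages fell in part. Of 21 tested, 9 fell, against 8.72 percent of all tested genes, and only Mgl2† rose (8 and 1 with the Rn18s-rs5 covariate). The median was -0.56 against -0.41 in control muscle. Cx3cr1 (ENSMUSG00000052336), the fractalkine receptor, stood at 294, 268 and 236 CPM at day 4 and at 36.2, 39.5 and 34.6 at day 7, a fall of 7.25-fold (log2 change -2.86, SE 0.14, adjusted p = 1.34e-09). Stab1, a scavenger receptor, fell from 329, 432 and 344 to 64.9, 34.8 and 53.2 CPM (log2 change -2.84, SE 0.21, adjusted p = 8.65e-08). Maf, a transcription factor of resident macrophages, fell from 155, 175 and 194 to 56.1, 50.4 and 40.0 (log2 change -1.84, SE 0.18, adjusted p = 1.59e-06). The folate receptor Folr2 fell from 305, 419 and 529.8 to 126, 115 and 115 (log2 change -1.82, SE 0.19, adjusted p = 3.25e-06). All day 7 values of these genes lay below all day 4 values and below those of control muscle at day 7. Gas6, which bridges dying cells to their receptors on macrophages, fell from 82.9, 139 and 129 to 38.8, 29.4 and 24.5 CPM (log2 change -1.91, SE 0.21, adjusted p = 5.29e-06). Gpr34 and P2ry12, receptors that microglia share with some tissue macrophages, fell (-2.36 and -2.38 on the log2 scale). Cd163, the haemoglobin scavenger receptor of resident cells, did not pass the test (22.5, 63.7 and 38.3 CPM at day 4 and 34.8, 32.4 and 17.2 at day 7). The monocyte genes Ccr2 and Ly6c2† did not pass it either (533, 420.1 and 399 and 471, 368 and 400.3 CPM for Ccr2, 445, 216 and 216 and 153, 253 and 485 for Ly6c2†).

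**Figure D3:**
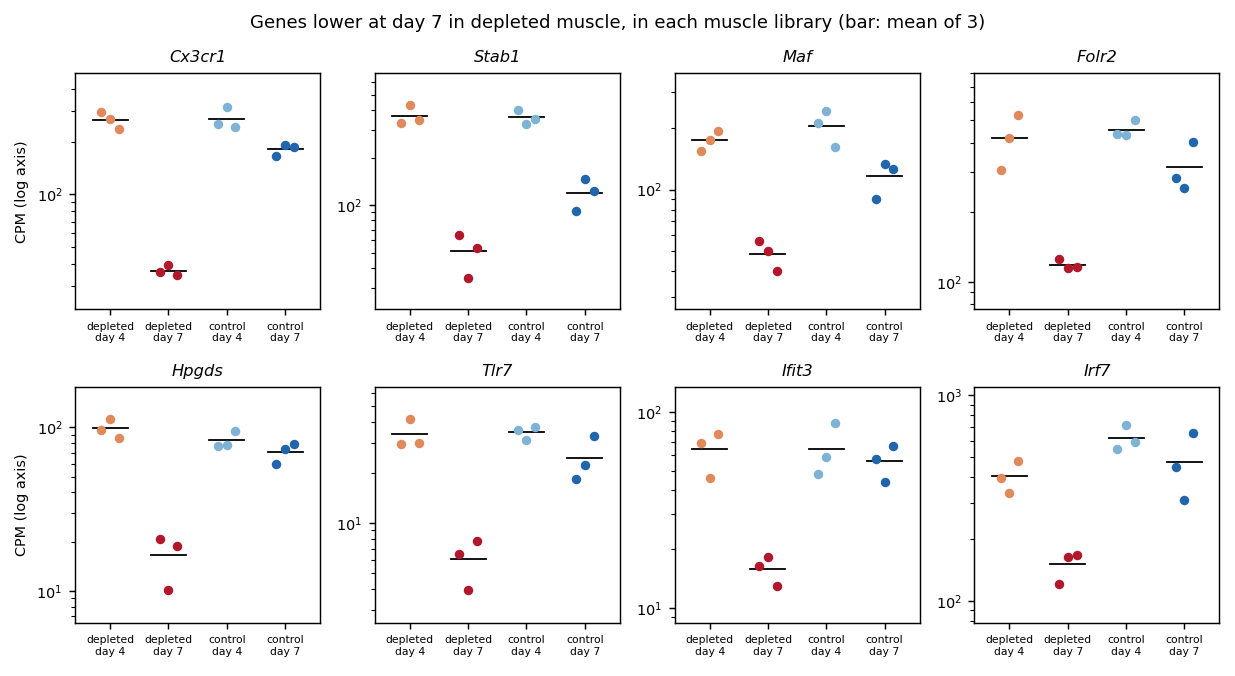
CPM (log axis) of 8 genes that fell, in each of the 12 muscle libraries, as points by arm and day, with bars at the mean of 3. In every panel the day 7 depleted libraries are the lowest of the 12, as Cx3cr1 at 34.6 to 39.5 CPM; the control days overlap for Ifit3.

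The machinery that takes up and digests dead cells fell in part. Of 19 receptors and bridging proteins of efferocytosis 10 fell and 2 rose (7 and 1 with the covariate), and of 32 lysosome genes 17 fell and none rose (11 with the covariate). Over all tested genes 8.72 percent fell and 10.7 percent rose, so that the efferocytosis rises were near the background. The median change of the lysosome genes was -0.50, beside -0.43 in control muscle, and the difference between the arms passed the test for 1 of the 32. Itgb5, an integrin chain that recognises dying cells, fell from 147, 219 and 159 to 41.6, 37.4 and 37.1 CPM (log2 change -2.17, SE 0.20, adjusted p = 6.2e-07). Its partner Itgav fell from 56.2, 73.6 and 55.0 to 18.0, 19.1 and 21.4 (log2 change -1.66, SE 0.25, adjusted p = 0.00012). The lysosomal protease Ctsd† fell from 2267, 4436 and 3881 to 1304, 1232 and 1458 (log2 change -1.41, SE 0.20, adjusted p = 8.33e-05). The lipid-associated macrophage list divided, with 8 genes higher and 10 lower of 24 (3 and 8 with the covariate, and 6 lower without the genes with divided counts). Spp1 (osteopontin) fell from 4066, 6514 and 7337 to 2037, 2288 and 2289 CPM (log2 change -1.44, SE 0.23, adjusted p = 0.000232). Gpnmb, a membrane glycoprotein of lipid-laden macrophages, fell from 490, 852 and 691 to 313, 174 and 250.3 (log2 change -1.46, SE 0.21, adjusted p = 9.23e-05). The lipid carrier Apoe fell from 13518, 26802 and 28624 to 9830.5, 6507 and 7329 (log2 change -1.54, SE 0.26, adjusted p = 0.000361). In the same list Itgax (CD11c) rose from 52.7, 40.9 and 27.4 to 177, 128 and 187 (log2 change 2.03, SE 0.21, adjusted p = 3e-06), as did Mmp12. Atp6v0d2, a subunit of the proton pump that acidifies lysosomes, rose, with 43.6 to 73.6 CPM at day 4 and 116 to 159 at day 7 (log2 change 1.29, SE 0.19, adjusted p = 0.000107). The lipid receptor Trem2‡ went from 720.1, 1103 and 1124 to 456, 274 and 469 CPM (-1.30 on the log2 scale). Syngr1, a vesicle membrane protein, had the largest fall of the list, from 120.4, 169 and 142 to 25.6, 16.7 and 19.5 (log2 change -2.79, SE 0.19, adjusted p = 2.94e-08).

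Complement genes moved both ways. Of 17 tested, 5 rose and 6 fell (3 and 2 with the covariate), against 10.7 and 8.72 percent of all tested genes. C3, the central component of the cascade, rose from 77.0, 29.9 and 31.5 to 151, 125 and 254 CPM (log2 change 1.94, SE 0.33, adjusted p = 0.00073). Serping1, the inhibitor of the first component, rose from 4.16, 1.17 and 1.58 to 72.5, 32.9 and 46.9 (log2 change 4.44, SE 0.40, adjusted p = 7.72e-07). The receptor for the C3a fragment, C3ar1, fell from 419, 393 and 465 to 192, 155 and 155 CPM (log2 change -1.35, SE 0.13, adjusted p = 1.47e-06). C5ar1, the receptor for C5a, fell from 330.1, 372 and 469 to 198, 259.7 and 182 (log2 change -0.88, SE 0.17, adjusted p = 0.000897). The days did not overlap in any of these 4 genes, which the rule for naming required. C1qc‡, a chain of C1q, went from 649, 879 and 873 to 534, 386 and 484 CPM (-0.77 on the log2 scale, beside -0.70 in control muscle).

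Of 16 classical monocyte genes tested, 6 rose and 2 fell, against 10.7 and 8.72 percent of all tested genes, so that the falls were near the background, and the count of 6 was 1 with the covariate and 3 without any one of replicates 2 and 3 of day 4 and replicate 2 of day 7. F13a1, the A chain of coagulation factor XIII, fell from 219.9, 298 and 323 to 146, 185 and 123 CPM (log2 change -0.89, SE 0.17, adjusted p = 0.00105). Clec4d, a lectin that senses fungi, fell from 61.4, 61.4 and 73.7 to 21.7, 18.6 and 30.6 (log2 change -1.47, SE 0.21, adjusted p = 8.86e-05). Fn1‡ (fibronectin) went the other way, from 330.1, 466 and 611 to 1351, 1717 and 954 CPM (log2 change 1.52, SE 0.22, adjusted p = 8.48e-05). Among iron and haem genes 1 of 19 rose and 6 fell (0 and 2 with the covariate). Hmox1‡, which degrades haem from dying red cells and muscle, went from 87.2, 138 and 202 to 49.4, 29.2 and 66.0 CPM (log2 change -1.55, SE 0.29, adjusted p = 0.00136). Spic‡, a transcription factor of iron-recycling macrophages, went from 12.1, 6.30 and 9.07 to 1.59, 4.51 and 3.98 (-1.50 on the log2 scale).

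MHC class II genes, which present antigen to helper T cells, rose. Of 10 tested, 8 rose in depleted muscle (7 with the covariate, 5 without the 3 with divided counts), against 10.7 percent of all tested genes. The median was 1.26 against 1.12 in control muscle, and the difference between the arms passed the test for none (edgeR's quasi-likelihood test, adjusted p-values over all genes). H2-Ab1, a chain of the class II molecule I-A, stood at 3396, 2981 and 3339.5 CPM at day 4 and at 8953, 6895 and 8254 at day 7 (log2 change 1.31, SE 0.17, adjusted p = 2.55e-05). H2-Aa, the other chain, stood at 2628, 2236 and 2419 and 6466, 4787 and 6115 (log2 change 1.25, SE 0.16, adjusted p = 1.77e-05). Cd74†, the invariant chain that loads class II molecules, stood at 2667, 2602 and 2714 and 7072, 5903 and 6279.9 (log2 change 1.27, SE 0.17, adjusted p = 4.95e-05). Ciita, the master regulator of these genes, did not pass the test (58.2 to 107 CPM at day 4, 70.3 to 104 at day 7). Of 14 dendritic cell markers 8 were tested, of which 5 rose and 1 fell. The summed level of the 14 was 313.1 to 317.3 CPM at day 4 and 506.3, 792.7 and 748.9 at day 7. The class II sum was 29650, 22880 and 27870 CPM in those day 7 libraries. Much of the dendritic sum came from Bst2, also an interferon response gene, and Cd24a. Bst2 stood at 186, 203 and 217 CPM at day 4, and Cd24a at 170, 479 and 363 at day 7. The order of the libraries in that sum is therefore largely that of single genes. Ccr7, the receptor with which dendritic cells reach lymph nodes, went from 2.92, 1.17 and 2.37 to 25.8, 30.5 and 39.8 CPM (log2 change 3.86, SE 0.32, adjusted p = 2.18e-07). Fscn1, an actin-bundling protein of mature dendritic cells, went from 7.91, 5.14 and 8.08 to 35.3, 37.7 and 40.2 (log2 change 2.41, SE 0.23, adjusted p = 1.13e-06). In control muscle Ccr7 and Fscn1 changed by 2.69 and 2.22 on the log2 scale. The part of dendritic cells in the rise of class II genes was not tested.

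Among 32 transcription factors of macrophages 11 rose and 7 fell (8 and 3 with the covariate), against 10.7 and 8.72 percent of all tested genes. Bhlhe40, a repressor known from proliferating and type 2 macrophages, rose from 25.0, 35.0 and 35.1 to 118, 159 and 128 CPM (log2 change 2.09, SE 0.17, adjusted p = 1.55e-07). Nfil3 rose from 22.3, 15.6 and 17.5 to 54.9, 62.9 and 67.5 (log2 change 1.73, SE 0.19, adjusted p = 4.2e-06). Nr4a3, a nuclear receptor induced early by stimulation, rose from 5.21, 3.04 and 7.30 to 33.3, 71.4 and 62.2 (log2 change 3.39, SE 0.33, adjusted p = 1.47e-06). Nr1h3, the oxysterol receptor LXR alpha, fell from 95.2, 94.8 and 89.9 to 42.0, 52.0 and 41.3 (log2 change -1.05, SE 0.14, adjusted p = 4.86e-05). Its target Abca1, the cholesterol exporter, fell from 71.6, 101 and 94.8 to 41.1, 34.8 and 33.1 (log2 change -1.29, SE 0.21, adjusted p = 0.000248). Spi1 (PU.1) stood at 113, 123 and 114 CPM at day 4 and 99.5, 111 and 138 at day 7 and did not pass the test. Genes that respond to handling of cells were measured beside these: 15 of 27 early response and dissociation stress genes rose and none fell (5 with the covariate), as did 11 of 15 glucocorticoid-induced genes (4 with the covariate). Nfkbia, the feedback inhibitor of NF-kappa B, rose from 333, 380.4 and 447 to 809, 1224 and 1004 CPM (log2 change 1.39, SE 0.15, adjusted p = 4.47e-06), and Btg2, an early response gene that slows division, from 268, 268 and 232 to 453, 594 and 447 (log2 change 0.96, SE 0.14, adjusted p = 8.98e-05). Per1, a clock gene that glucocorticoids induce, rose from 18.9, 15.4 and 15.0 to 37.2, 52.0 and 54.3 (log2 change 1.53, SE 0.21, adjusted p = 4.05e-05). In control muscle the changes were 1.15, 0.36 and 0.85 on the log2 scale. Of 36 cell cycle genes 11 fell and none rose, and the count of 11 was 1 with the Rn18s-rs5 covariate, 6 without replicate 2 of day 4, 6 without replicate 2 of day 7, 7 without replicate 1 of day 4 and 7 without replicate 1 of day 7. Top2a, a topoisomerase of dividing cells, fell from 55.2, 53.9 and 48.1 to 29.3, 32.4 and 25.8 CPM (log2 change -0.85, SE 0.16, adjusted p = 0.000727), while Mki67 did not pass the test (14.2 to 16.2 and 7.12 to 11.1 CPM).

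Markers of other cells were measured in the sorted libraries. Of 18 genes of fibroblasts and mural cells 15 rose and none fell, also with the covariate, against 10.7 and 8.72 percent of all tested genes. Their summed level was 170.5 to 220.7 CPM at day 4 and 1657 to 2161 at day 7. In control muscle it was 282.8 to 468.9 CPM at day 4 and 1695 to 1855 at day 7. Col1a1, the chain of collagen I, stood at 26.2, 18.2 and 22.7 CPM at day 4 and 306, 217 and 297 at day 7 (log2 change 3.61, SE 0.20, adjusted p = 3.32e-09). Postn (periostin) stood at 15.2, 6.77 and 7.89 and 241, 238 and 228 (log2 change 4.56, SE 0.26, adjusted p = 3.72e-09). In control muscle the changes were 2.54 and 2.91 on the log2 scale. Of 21 T and NK cell markers 11 were tested, and a marker low at day 4 could pass the filter on its day 7 level alone. Of the 11, 9 rose and Cd4 fell (-1.48 on the log2 scale, a call lost without any one of 5 of the 6 depleted libraries), or 6 and none with the covariate. The sum of all 21 was 16.56 to 25.4 CPM at day 4 and 85.74 to 92.85 at day 7, against 81.84 to 121.7 in control muscle at day 7. The sum of 18 neutrophil markers was 227.2 to 263.8 CPM at day 4 and 1119 to 2954 at day 7, when most of it was Retnlg, a resistin-like protein of bone marrow and neutrophils (47.9, 61.4 and 44.6 CPM at day 4, 954, 2655 and 2284 at day 7, log2 change 5.26, SE 0.31, adjusted p = 2.94e-08). Ly6g, which defines neutrophils, was at no more than 0.84 CPM in any depleted library, and of 13 neutrophil markers tested 4 rose and 2 fell (1 and 1 with the covariate, and 2 higher without any one of replicates 1 and 2 of day 4 and 2 and 3 of day 7). For muscle fibres and satellite cells 13 of 20 markers were tested, and none passed the test in either direction. For these sums the exact permutation test of 3 libraries against 3 cannot give a p under 0.1 (two-sided), and most lists reached it, so that it sets none of them apart. The part of these cells in the changes above was not tested.

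**Figure D4:**
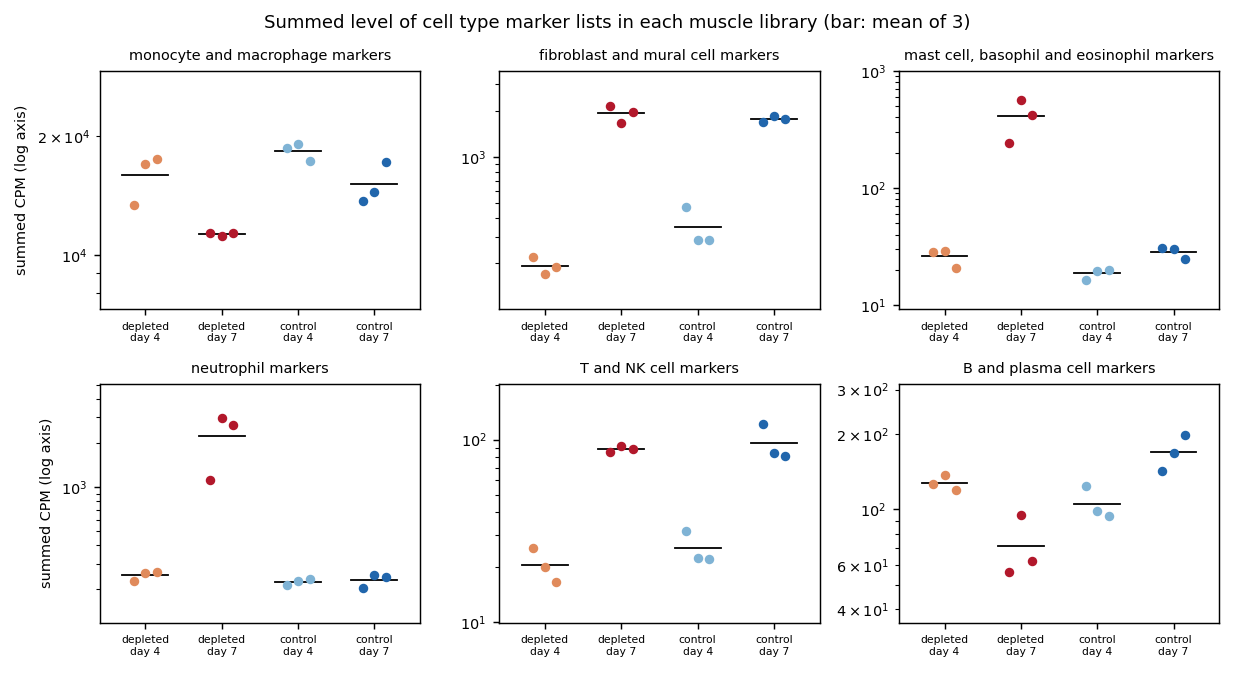
Summed CPM (log axis) of 6 cell type marker lists in each of the 12 muscle libraries, as points by arm and day, with bars at the mean of 3. Fibroblast markers rise in both arms, and mast cell, basophil and eosinophil markers are at 241.9 to 561.6 CPM in the day 7 depleted libraries and at 24.79 to 30.57 in those of control muscle, which stood at 16.52 to 19.9 at day 4.

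Whether the change over time differed between the arms was tested with the interaction of arm and day over the 12 muscle libraries. It did for 311 genes: in 205 (1.59 percent of those tested) the change was more positive in depleted muscle and in 106 (0.821 percent) more negative. Of the 311, 278 had also changed over time in depleted muscle. The count of 311 was 48 with the Rn18s-rs5 covariate, 236 without replicate 2 of depleted day 7, and between 154 (without replicate 3 of control day 7) and 453 (without replicate 1 of depleted day 7) as single libraries were left out. Glycolysis and hypoxia genes were often among them, with 19 of 29 more positive in depleted muscle and none more negative (2 with the Rn18s-rs5 covariate, 12 without replicate 3 of control day 7, 12 without the genes with divided counts). Type 2 genes had 10 of 20 such differences (5 with the covariate, 6 without the genes with divided counts), and matrix proteases and inhibitors 6 of 22 (5 with the covariate). Markers of mast cells, basophils and eosinophils had 4 of 7 (1 with the covariate, 2 with limma-voom). Among type I interferon genes 3 of 29 had a difference that passed the test, none with the covariate and 11 without the filter on low counts, so that most of their fall was not shown to differ from control muscle. Ccl24 changed by 3.47 on the log2 scale in depleted and by -0.20 in control muscle (difference 3.68, SE 0.31, adjusted p = 5.55e-06). Chil3† changed by 4.04 and -1.29 (difference 5.33, SE 0.35, adjusted p = 4.23e-07), Slc2a1 by 1.27 and -0.65 (difference 1.91, SE 0.33, adjusted p = 0.00548) and Cx3cr1 by -2.86 and -0.57 (difference -2.29, SE 0.19, adjusted p = 3.87e-06). Hpgds†, the enzyme that makes prostaglandin D2 in immune cells, stood at 97.0, 113 and 86.2 CPM at day 4 and 20.6, 10.1 and 18.9 at day 7 in depleted muscle. In control muscle it stood at 77.2, 77.6 and 95.3 and 59.5, 74.3 and 79.2 (difference -2.32, SE 0.28, adjusted p = 0.000248). Hpgd, which inactivates prostaglandins, stood at 7.08, 15.4 and 11.0 and 4.23, 1.33 and 2.09 CPM in depleted muscle. It went from 18.8, 13.9 and 14.3 to 22.1, 30.6 and 27.8 in control muscle (difference -2.82, SE 0.46, adjusted p = 0.00336). These 6 differences held under every alternative that could give a value; Chil3† and Hpgds† drop out where genes with divided counts are removed.

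**Figure D5:**
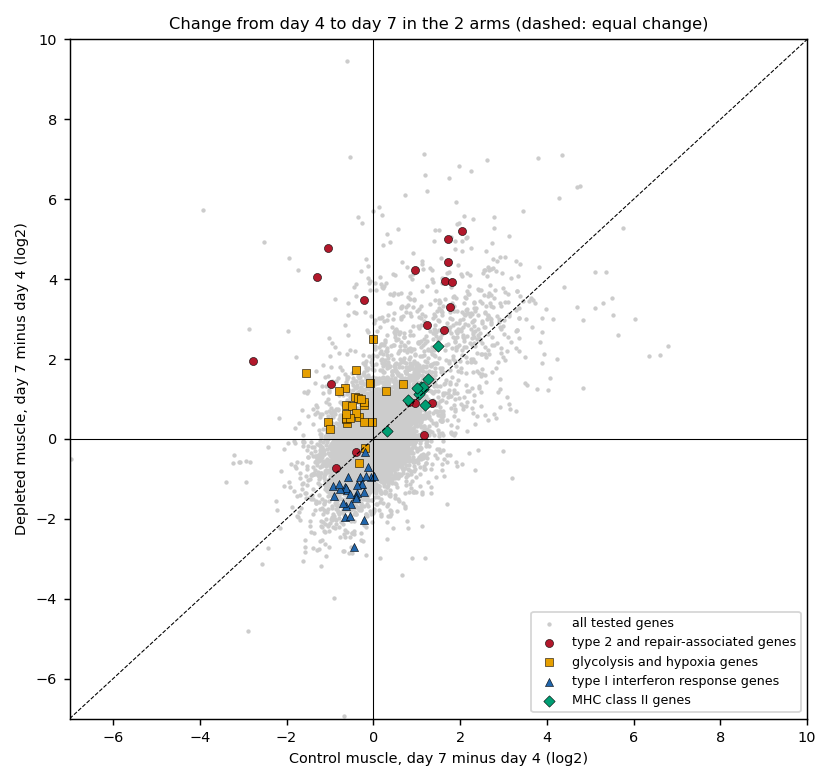
Log2 change from day 4 to day 7 in control muscle (horizontal) and in depleted muscle (vertical) for all tested genes (grey) and 4 gene lists (coloured), with a dashed line where both changes are equal. Most glycolysis and hypoxia genes sit above the line, with medians of -0.41 in control and 0.83 in depleted muscle, while MHC class II genes lie near it (1.12 and 1.26).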

How the data were processed

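The authors deposited one table of estimated counts for 57010 genes, whose values are not always whole: 19.6 percent of the non-zero muscle values lay more than 0.01 from a whole number. Per the submitters' processing notes, STAR, featureCounts and limma were used, with the builds GRCm38 and GRCm39; for versions, settings, strand and the collapsing of molecular identifiers, nothing is given in the sources used here. Rounded counts went into edgeR 4.0.16 under R 4.3.3 (scaling by TMM, filterByExpr, robust quasi-likelihood fit of 4 groups over the 12 muscle libraries, Benjamini-Hochberg threshold 0.05). The fit was tested on simulated data. Standard errors are the log2 change divided by the square root of F. DESeq2 1.42.0 and limma 3.58.1 (voom) served as alternatives.

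Genes named are called genes with a mean of at least 5 CPM and no overlap between days: the 12 largest changes each way, up to 5 of smallest p per list and direction, the 6 largest differences each way, and a fixed panel; those printed were picked from these after their values were seen. Outside this rule, and also chosen after their values were seen, are Cd4, Cd209d, Cpa3, Csf1r, Eno1, Epx, Gpr34, H2-M2, Hif1a, Il5ra, Irf7, Ldha, Ly6g, Mcpt4, P2ry12, Pdcd1lg2, Pgk1, Retnla, Rn18s-rs5, Rsad2, Serpinb2, Spi1 and Tlr7. Members and lists were chosen with earlier results of these data known. Promoter windows are from RefSeq. No batch is labelled, and all per-sample columns used were mapped by title.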

Additional observations from a re-analysis of the deposited data

Results flagged for a closer look

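The change from day 4 to day 7 differed between depleted and control muscle for 311 genes by the interaction of arm and day (edgeR, adjusted p under 0.05). Values here are the change in depleted minus the change in control muscle on the log2 scale, for those of the 311 that the text names. A difference that held did so under every alternative that could give a value.

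Among the genes named, those whose difference was positive and held were Col6a5 (10.10), Prg2 (5.67), Rnase2a (5.42), Chil3† (5.33), Retnlg (4.69), Ccl24 (3.68), Ear2† (3.27), Timp1 (2.22), Mmp12 (1.93), Slc2a1 (1.91), Atp6v0d2 (1.57), Adam8 (1.52) and Gpi1† (1.47). The value for Col6a5 is a fitted one that depends on the prior count. Its depleted day 4 libraries had no counts, and its control libraries had 4 in all at day 4 and 2 at day 7. Negative differences that held were those of Hpgd (-2.82), Hpgds† (-2.32), Cx3cr1 (-2.29), Gpr34 (-1.86), Gas6 (-1.75) and Syngr1 (-1.49).

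Lost in the fit with the Rn18s-rs5 covariate and in no other alternative were the positive differences of Arg1 (4.71), Alox15 (3.27), Siglecf (3.01), Inhba (2.91), Vegfa (2.51), Hbegf (2.39), Slc16a3 (2.14), Postn (1.65), Mgl2† (1.52), Aldoa† (1.37), Pgk1† (1.32), Eno1† (1.14) and Ldha (1.05). The negative ones lost only there were Gpr162 (-4.06), Tlr7 (-1.92), Ifit3† (-1.81) and Folr2 (-1.27). In that fit all of them kept their direction: Arg1 had 4.22 (adjusted p = 0.124), Inhba 2.98, Ldha 1.07 and Ifit3† -1.57. Vegfa had 1.49 and Siglecf 2.21.

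Lost under at least 1 alternative other than the covariate were the positive differences of Chil4† (5.82), Ccr3 (3.58), Retnla (3.16), H2-M2 (2.49), Acod1 (2.29), Il6 (1.36), Itgax (1.32), Il1rn (1.29), Nfil3 (1.23), Col1a1 (1.07) and Bhlhe40 (1.01). The negative differences lost in this way were those of Spic (-2.07), P2ry12 (-1.93), Mx1 (-1.38), Ccl12 (-1.35), Stab1 (-1.26), Il18 (-1.22) and Maf (-1.02). Each of them was lost without at least 1 of the 12 libraries, and all but Chil4†, Itgax and Maf were also lost with the covariate. For Retnla that was so without any one of 8 libraries, among them 4 of the control arm, and the adjusted p was 0.0742 without replicate 3 of control day 7.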

How the results depend on the processing

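The count of 2502 genes that changed from day 4 to day 7 in depleted muscle (1377 higher, 1125 lower) was within 1.5 times of this with DESeq2's size factors (2465), without the filter on low counts (2684), with DESeq2 (2559), limma-voom (2358), counts not rounded (2507), the 6 depleted libraries alone (1967) and without genes with divided counts (2163). With the Rn18s-rs5 covariate, chosen after seeing the data, it was 901 (501 higher, 400 lower). Leaving out each library gave 1968 to 2371 genes, 1125 to 1357 higher and 843 to 1014 lower.

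The count of 311 differences between the arms (205 positive, 106 negative) was 583 without the filter (382 and 201), 490 with DESeq2 (329 and 161), 207 with limma-voom (134 positive) and 48 with the Rn18s-rs5 covariate (30 and 18). Leaving out each library gave 154 to 453 (108 to 314 positive, 46 to 139 negative): 197 and 191 without replicates 2 and 3 of depleted day 4, 198 and 167 without replicates 1 and 2 of control day 4, and 172 and 154 without replicates 2 and 3 of control day 7. The cause was not tested.

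Libraries with the same replicate number in their titles did not deviate together (correlations of -0.011, -0.0051 and -0.014). No pairing by these numbers was thus seen, but the check cannot exclude a shared batch or handling. With the replicate block 2498 genes changed over time and 317 differed between the arms, beside 2502 and 311.

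Of the 107 named genes with a change over time, 92 kept their call under every alternative that could give a value and 11 lost it only with the Rn18s-rs5 covariate. The others were Arg1, Cd4, Lyz2† and Rn18s-rs5. At these depths genes of a few CPM rest on few counts per library, which limits the precision of their values.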
